A study of Sus scrofa with 92 samples.

Results

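Fatty acid synthesis genes are described here in liver biopsies from pigs that underwent hemorrhagic shock, polytrauma and resuscitation. The set was 9 genes chosen by symbol: FASN, ACACA, ACACB, ACLY, SCD, ELOVL6, SREBF1, ME1 and AACS. Of these, 8 of 9 were matched to a pig Ensembl identifier in the count table, which held 25322 identifiers, 18356 of them with at least 1 count. SREBF1, the sterol regulatory element transcription factor that drives much of the pathway, was matched to no row and was not analysed here.

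All animals were juvenile male Yorkshire-Landrace pigs fasted overnight, splenectomized, bled, and given a blunt chest injury and a liver crush injury. The fasted group (FS, 18 animals) received nothing more, and the carbohydrate prefed group (CPF, 5 animals) received a bolus of corn syrup before induction of anesthesia. Biopsies from the periphery of the liver were sequenced at Baseline (B, after instrumentation and before hemorrhage) and at 2, 8 and 20 hours of resuscitation (FR2, FR8, FR20), which the labels count from its start. There was no uninjured group, so time under anesthesia, injury and resuscitation cannot be told apart, and 3 FS and 2 CPF animals died. Animals are numbered 1 to 23 here.

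De novo fatty acid synthesis turns surplus carbohydrate into fat in the cytosol. Citrate or acetate is first converted to acetyl-CoA, acetyl-CoA carboxylase adds a carboxyl group to give malonyl-CoA, and fatty acid synthase joins these units into palmitate with NADPH as the reductant. Elongases and desaturases then lengthen the chain and add double bonds. The liver genes of the pathway are classically induced by insulin and carbohydrate and lowered by fasting, and in pigs adipose tissue carries out more of this synthesis than the liver does.

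Sequencing depth and the labels of the libraries were examined first. The series held 92 libraries, of which 88 were used, with 6877117 to 16613261 counts each. One CPF FR8 library (animal 3) held 4388 counts and was left out. The Baseline libraries of FS animals 17, 19 and 21 held 4, 899 and 5 counts of albumin (ALB, the main secreted protein of hepatocytes), whereas every other Baseline library had at least 59451 CPM of ALB (CPM are a gene's counts scaled to a common library total), and these 3 were left out too. Baseline therefore had 15 FS and 5 CPF libraries.

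Each used library was then compared with the mean profile of the other animals at each timepoint, over 13518 genes that belong to no list used here. Of 88 libraries, 71 were most like their own timepoint and 17 were most like another. In 11 libraries of 5 animals (FS animals 10, 17, 19 and 21, and CPF animal 13) the correlation with another timepoint was higher than with the labelled one by 0.669 to 1.138, and the largest such margin among the other libraries was 0.494. In animals 17, 19 and 21 alike, the library labelled FR8 was most like Baseline, the library labelled FR20 was most like FR2 and the library labelled FR2 was most like FR8. The libraries were kept under their labels, the reason was not tested, and the values below are given with and without these 5 animals where the difference matters. Leaving them out was decided after the values were seen.

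Levels are given as CPM after TMM scaling, which corrects for differences in RNA composition between libraries. A gene was called when edgeR's quasi-likelihood test gave a Benjamini-Hochberg adjusted p under 0.05 and a log2 fold change of at least 1 in size. In FS animals FASN was lower at every time after Baseline, ACACA, SCD and AACS were lower at FR8 and FR20, ELOVL6 was lower at FR8, and ACLY, ME1 and ACACB did not pass the test. At FR2vB 1 of 8 members was called lower (FASN), where 5.85% of all 13667 genes tested were called lower. At FR8vB 5 of 8 were called lower (FASN, ACACA, SCD, ELOVL6 and AACS) against 7.39% of all genes, and at FR20vB 4 of 8 (FASN, ACACA, SCD and AACS) against 5.25%. No member was called higher at any of these times, where 5.17%, 4.44% and 4.68% of all genes were, and by DESeq2 and the edgeR likelihood ratio test none was called higher either. Every member with an unadjusted p under 0.05 at these 3 times had a negative estimate. The median log2 fold change of the 8 members was −0.56, −1.45 and −0.71 at FR2vB, FR8vB and FR20vB, where the median over all genes was −0.04, 0.00 and 0.04.

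In CPF animals FASN, ACACA, SCD and AACS were lower at FR8, and SCD was lower at FR20. No member was called at FR2vB by edgeR's quasi-likelihood test, by DESeq2 or by the edgeR likelihood ratio test, none had an unadjusted p under 0.05, and 0.937% of all genes were called lower and 1.47% higher. At FR8vB 4 of 8 members were called lower (FASN, ACACA, SCD and AACS) against 5.14% of all genes, and none was called higher against 3.7%. At FR20vB only SCD was called lower, 1 of 8 against 0.454%, and none was called higher against 0.249%. Of the members with higher estimates, ME1 had an unadjusted p under 0.05 at FR8vB (1.01, p = 0.0446) and FR20vB (0.97, p = 0.0409) from edgeR's quasi-likelihood test. DESeq2 and the edgeR likelihood ratio test also called ELOVL6 lower at FR8vB and none higher at these times. The shares of all genes that these tests called are not given here. With the 5 animals named above left out, 5 members were called lower at FR8vB, with ELOVL6 added, and 4 at FR20vB (FASN, ACACA, SCD and AACS). The share of all genes called in either direction also moved, from 8.83% to 11.2% at CPF FR8vB and from 0.702% to 7.08% at CPF FR20vB. In FS animals 1, 5 and 4 members were called without them, where the share of all genes went from 11% to 15.4% at FR2vB, from 11.8% to 19% at FR8vB and from 9.94% to 13% at FR20vB.

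**Figure D1:**
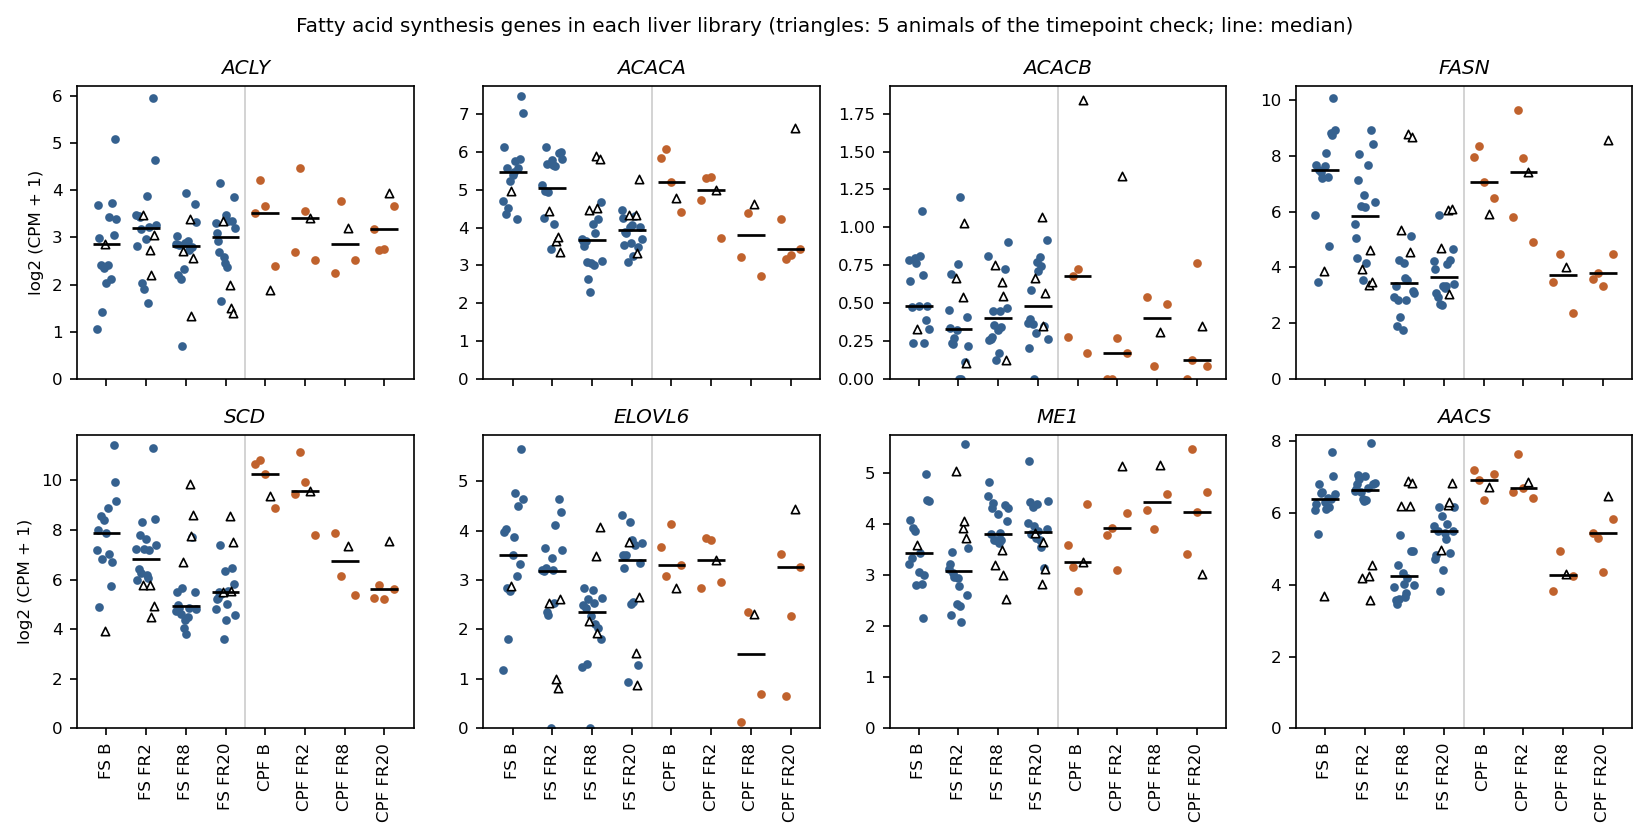
Level of each of the 8 members in every used library, as log2 (CPM + 1), by feeding group and timepoint. Dots are libraries, triangles the libraries of the 5 animals that resembled another timepoint, and horizontal lines the group medians. The medians of FASN, ACACA, SCD and AACS are lower at FR8 and FR20 than at Baseline in both feeding groups. In CPF animals at FR20 only SCD was called, and animal 13 lay above every CPF Baseline library for FASN and ACACA. The ACLY libraries overlap between timepoints.

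ATP citrate lyase (ACLY, ENSSSCG00000017421), which cleaves citrate to give cytosolic acetyl-CoA, did not pass the test at any time. In FS animals its lowest, median and highest levels were 1.09, 6.25 and 32.9 CPM at Baseline (15 libraries), and 2.04, 8.20 and 60.6 CPM at FR2 (18 libraries). They were 0.635, 6.04 and 14.4 CPM at FR8 and 1.63, 7.06 and 16.8 CPM at FR20. The ranges overlapped throughout, and the log2 fold changes were 0.52 ± 0.29 (SE; adjusted p = 0.147, edgeR), −0.06 ± 0.29 (adjusted p = 0.883) and 0.08 ± 0.28 (adjusted p = 0.859). At FR8vB the 95% interval ran from −0.64 to 0.51. In CPF animals ACLY was 2.72, 4.23, 10.4, 11.6 and 17.7 CPM at Baseline and 3.74, 4.73, 8.23 and 12.6 CPM at FR8, again overlapping.

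Acetoacetyl-CoA synthetase (AACS, ENSSSCG00000009755), which activates the ketone body acetoacetate for lipid synthesis, fell by FR8 and had a smaller estimated decrease at FR20. Its lowest, median and highest levels in FS animals were 11.9, 83.4 and 208 CPM at Baseline, 11, 98.3 and 245 CPM at FR2, 9.99, 18.1 and 117 CPM at FR8, and 13.1, 44.1 and 112 CPM at FR20. The log2 fold change was 0.11 ± 0.32 at FR2vB (adjusted p = 0.816), −1.65 ± 0.36 at FR8vB (adjusted p = 0.000198) and −1.01 ± 0.33 at FR20vB (adjusted p = 0.0141, edgeR). The FR20vB change fell short of the 1 log2 unit of a call when animal 2, 5, 9, 12, 20 or 22 was left out (−0.98 to −0.92). Within animals, 14 of 15 were higher at FR2 than at Baseline and 14 of 15 were lower at FR8. The high FR8 values and the low FR2 values belonged to animals 10, 17, 19 and 21: these had 71.6, 117, 71.5 and 114 CPM in the libraries labelled FR8 and 17.1, 18, 11 and 22.2 CPM in those labelled FR2. Without the 5 animals, all 14 FS libraries at FR8 (9.99 to 40.7 CPM) lay below the lowest at Baseline (42.0 CPM), and the change at FR8vB was −2.31 ± 0.20 (adjusted p = 9.52e-14). In CPF animals AACS was 81.5, 104, 119, 135 and 147 CPM at Baseline, 84.6, 95.2, 102, 115 and 200 CPM at FR2, 13.1, 18, 18.6 and 29.7 CPM at FR8, and 19.5, 38.7, 42.7, 55.4 and 87.8 CPM at FR20. All 4 CPF libraries at FR8 lay below all 5 at Baseline, with a log2 fold change of −2.51 ± 0.69 (adjusted p = 0.0116), which lost its call without animal 7 (−2.33, adjusted p = 0.0521) or 18 (−2.40, adjusted p = 0.0736). For AACS and for the members below, the share of all genes whose groups did not overlap was not computed, so whether such separation was unusual cannot be read here.

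Acetyl-CoA carboxylase alpha (ACACA, ENSSSCG00000017694), the cytosolic enzyme that makes malonyl-CoA for chain synthesis, was lower in every FS animal with both libraries by FR8. Its lowest, median and highest FS levels were 17.7, 43.1 and 177 CPM at Baseline, 9.18, 32.0 and 69.0 CPM at FR2, 3.96, 11.8 and 58 CPM at FR8, and 7.56, 14.4 and 37.8 CPM at FR20. At FR8, 13 of 18 FS libraries were below the lowest Baseline library. The log2 fold change was −0.51 ± 0.29 at FR2vB (adjusted p = 0.152), −1.79 ± 0.31 at FR8vB (adjusted p = 8.78e-06) and −1.77 ± 0.30 at FR20vB (adjusted p = 5.27e-06, edgeR). Within animals, 15 of 15 were lower at FR8 than at Baseline and 15 of 15 at FR20. In CPF animals ACACA was 20.1, 26.3, 36.1, 55.8 and 66.2 CPM at Baseline, 5.55, 8.31, 19.8 and 23.7 CPM at FR8, and 7.97, 8.62, 9.78, 17.8 and 98.0 CPM at FR20. The 98.0 CPM was from animal 13, whose library labelled FR20 was most like Baseline. The CPF change at FR8vB was −1.73 ± 0.60 (adjusted p = 0.0437), and it lost its call when any 1 of the 5 CPF animals was left out (−2.09 to −1.29, adjusted p = 0.0528 to 0.21). At FR20vB it was −1.04 ± 0.56 (adjusted p = 0.351) with all animals and −1.90 ± 0.43 (adjusted p = 0.00189) without the 5 animals of the timepoint check.

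Acetyl-CoA carboxylase beta (ACACB, ENSSSCG00000009937), the form at the mitochondrial surface whose malonyl-CoA restrains fatty acid oxidation, was near the limit of detection. It had a median of 0.399 CPM in FS animals at Baseline (0.177 to 1.16 CPM), and 0.259, 0.323 and 0.398 CPM at FR2, FR8 and FR20. In FS animals its log2 fold changes from Baseline were −0.61 ± 0.41, −0.47 ± 0.40 and −0.19 ± 0.40 (adjusted p = 0.235, 0.371 and 0.745, edgeR), so no difference was detectable at this depth. In CPF animals at Baseline it was 0.128, 0.213, 0.602, 0.655 and 2.58 CPM, the last in animal 13.

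Fatty acid synthase (FASN, ENSSSCG00000029944), the multienzyme that assembles palmitate, had the largest FS decrease of the 8 members at each time. Its lowest, median and highest FS levels were 10.1, 177 and 1085 CPM at Baseline, 9.40, 58.2 and 481 CPM at FR2, 2.43, 9.82 and 439 CPM at FR8, and 5.36, 12 and 66.5 CPM at FR20. At FR8 9 of 18 FS libraries were below the lowest Baseline library, while animals 17 and 21 stood far above the rest at 439 and 403 CPM and animal 10 was next at 39.6 CPM. The log2 fold change was −1.47 ± 0.51 at FR2vB (adjusted p = 0.0155), −3.73 ± 0.61 at FR8vB (adjusted p = 3.39e-06, 13.3-fold lower) and −3.91 ± 0.56 at FR20vB (adjusted p = 2.39e-07, edgeR). FASN was lower at FR8 in 14 of 15 FS animals, the exception being animal 10, and in 14 of 14 without it. Leaving out the 5 animals gave −4.58 ± 0.42 at FR8vB (adjusted p = 3.85e-13) and −3.95 ± 0.42 at FR20vB (adjusted p = 4.44e-11).

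FASN in CPF animals was 60.1, 88.4, 133, 248 and 326 CPM at Baseline and 29.2, 54.7, 172, 239 and 802 CPM at FR2. It was 4.21, 10.1, 15.1 and 21.6 CPM at FR8, and 9.0, 11, 13, 21.3 and 382 CPM at FR20. At FR2 the CPF values spread on both sides of the Baseline range, 3 of 5 animals being higher and 2 lower, and the log2 fold change was −0.12 ± 0.96 (adjusted p = 0.961). All 4 FR8 libraries lay below all 5 Baseline libraries, with a change of −4.18 ± 1.15 (adjusted p = 0.0126, 18.1-fold lower). Without animal 18 it was −4.12 and was not called (adjusted p = 0.071, edgeR). At FR20vB the change was −2.06 ± 1.10 (adjusted p = 0.348). The single high value, 382 CPM, was again animal 13, and without the 5 animals of the timepoint check the change was −3.55 ± 0.76 (adjusted p = 0.000888).

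Stearoyl-CoA desaturase (SCD, ENSSSCG00000010554), which introduces the double bond that makes oleate, was lower at FR8 and FR20 in both feeding groups. Its lowest, median and highest FS levels were 14, 232 and 2761 CPM at Baseline, 21.4, 116 and 2510 CPM at FR2, 13.1, 29.3 and 933 CPM at FR8, and 11.2, 44.1 and 382 CPM at FR20. The FS ranges overlapped at every time, the top value at both Baseline and FR2 being animal 20. The log2 fold change was −0.87 ± 0.41 at FR2vB (adjusted p = 0.0807), −2.37 ± 0.48 at FR8vB (adjusted p = 6.96e-05) and −2.48 ± 0.45 at FR20vB (adjusted p = 1.74e-05, edgeR). In CPF animals SCD was 477, 651, 1215, 1625 and 1792 CPM at Baseline, 40.6, 69.8, 162 and 233 CPM at FR8, and 35.9, 37.3, 48.7, 54.2 and 189 CPM at FR20. Neither the FR8 nor the FR20 libraries overlapped Baseline, and the changes were −3.46 ± 0.90 (adjusted p = 0.00894) and −4.0 ± 0.85 (adjusted p = 0.0173, 16-fold lower). The FR8 change lost its call without animal 18 (−3.46, adjusted p = 0.0532, edgeR), and the FR20 change when animal 3, 7, 8 or 18 was left out (−4.3 to −3.62, adjusted p = 0.0613 to 0.114).

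The long-chain elongase ELOVL6 (ENSSSCG00000025541), which extends palmitate to stearate, was lower at FR8 in FS animals. Its lowest, median and highest FS levels were 1.27, 10.3 and 49.2 CPM at Baseline, 0, 8.14 and 24.0 CPM at FR2, 0, 4.14 and 15.9 CPM at FR8, and 0.824, 9.63 and 18.9 CPM at FR20. The groups overlapped, and both zeros were animal 11. The log2 fold change was −0.64 ± 0.42 at FR2vB (adjusted p = 0.223), −1.25 ± 0.46 at FR8vB (adjusted p = 0.0246) and −0.41 ± 0.43 at FR20vB (adjusted p = 0.482, edgeR). The FR8vB call was lost when animal 14, 16, 22 or 23 was left out (−1.17 to −1.05, adjusted p = 0.0527 to 0.0708), and without the 5 animals of the timepoint check the change was −1.74 ± 0.43 (adjusted p = 0.000567). In CPF animals all 4 FR8 libraries (0.0913, 0.616, 4.00 and 4.13 CPM) were below all 5 at Baseline (6.11, 7.48, 8.85, 11.8 and 16.6 CPM), yet the change of −2.52 ± 0.90 had an adjusted p of 0.051 from edgeR. It was −2.91 ± 0.98 (adjusted p = 0.0294) when the 5 animals were left out. At FR20 the CPF values were 0.563, 3.83, 8.65, 10.6 and 20.6 CPM, on both sides of the Baseline range.

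Cytosolic malic enzyme (ME1, ENSSSCG00000004454), a source of NADPH, did not pass the test against Baseline at any time. Its FS median was 9.78 CPM at Baseline (3.44 to 30.6 CPM), 7.46 CPM at FR2 (3.21 to 46.3 CPM), 13.1 CPM at FR8 (4.76 to 27.2 CPM) and 13.4 CPM at FR20 (6.04 to 36.5 CPM). The log2 fold change was −0.09 ± 0.26, 0.43 ± 0.25 and 0.49 ± 0.25 (adjusted p = 0.811, 0.167 and 0.13, edgeR). In CPF animals ME1 was 5.43, 7.91, 8.55, 11 and 20.0 CPM at Baseline and 14, 18.4, 23.1 and 34.4 CPM at FR8, higher in 4 of 4 animals with both libraries. The CPF change at FR8vB was 1.01 ± 0.49 (adjusted p = 0.163).

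**Figure D2:**
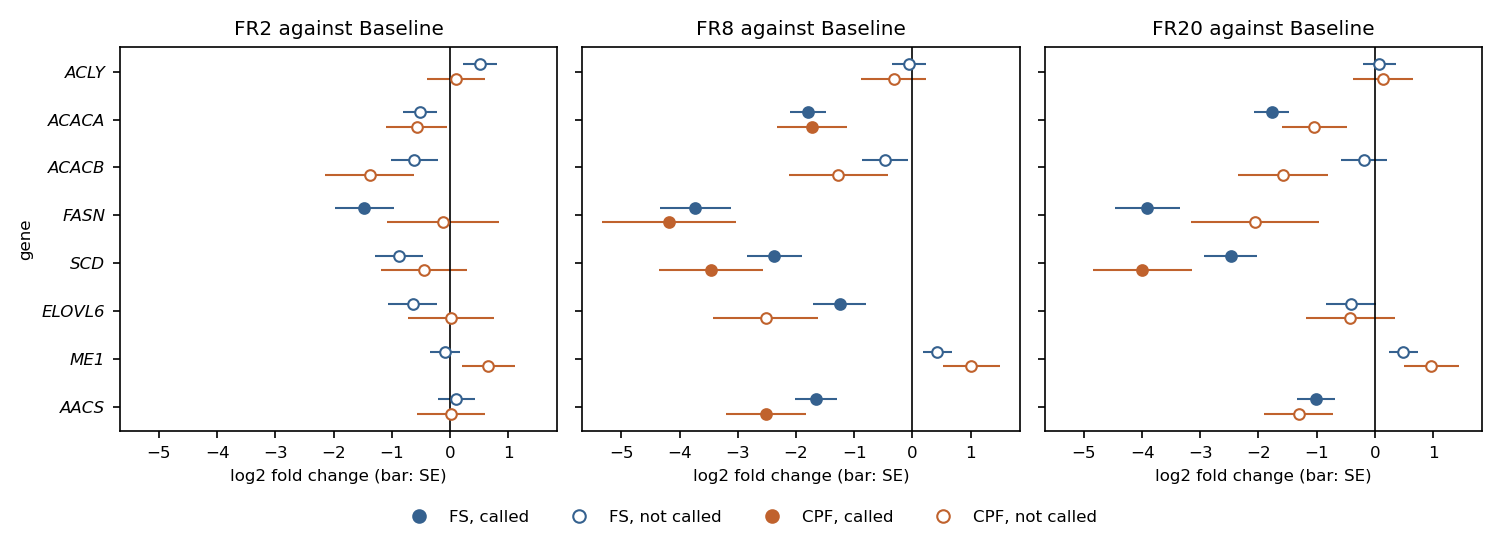
Log2 fold change from Baseline of each member in FS (blue) and CPF (orange) animals at FR2, FR8 and FR20, with bars of 1 SE. Filled points were called: FASN at FR2 in FS animals, FASN, ACACA, SCD and AACS at FR8 in both groups with ELOVL6 in FS only, and at FR20 FASN, ACACA, SCD and AACS in FS and SCD in CPF.

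The same genes were compared between FR2 and FR8. At FR8vFR2, 4 of 8 members were called lower in FS animals against 3.43% of all genes: FASN (−2.26), ACACA (−1.27), SCD (−1.50) and AACS (−1.75, log2). Animals 10, 17 and 21 went up in FASN between these 2 libraries, and animals 10, 17, 19 and 21 in ACACA, SCD and AACS, whereas without them 14 of 14 FS animals went down in each of the 4 genes. Without the 5 animals of the timepoint check the FS changes were −3.33 for FASN, −1.92 for ACACA, −2.47 for SCD and −2.67 for AACS, ELOVL6 was called lower at −1.27 and ME1 was called higher at 1.12 ± 0.22 (adjusted p = 2.33e-05, edgeR), where 15.9% of all genes were called in either direction against 5.96% with all animals. In CPF animals 3 of 8 members were called lower against 2.36%: FASN (−4.06), SCD (−3.01) and AACS (−2.53). All 4 CPF animals with both libraries went down in each of these genes. The CPF calls were lost without animal 7, 13 or 18 for FASN (−4.32 to −3.18, adjusted p = 0.0718 to 0.13) and AACS (−2.57 to −2.1, adjusted p = 0.0789 to 0.122), and without 7, 8, 13 or 18 for SCD (−3.21 to −2.75, adjusted p = 0.08 to 0.107).

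Between FR8 and FR20 no member was called by edgeR's quasi-likelihood test, by DESeq2 or by the edgeR likelihood ratio test in either group, where 1.46% of all genes were called in FS and 0.022% in CPF animals. No member had an unadjusted p under 0.05 in FS, and 1 did in CPF animals (ELOVL6). AACS was higher at FR20 than at FR8 in 13 of 18 FS animals. Without the 5 animals AACS (1.23 ± 0.20, adjusted p = 9.03e-06) and ELOVL6 (1.40 ± 0.44, adjusted p = 0.0144) were called higher at FR20vFR8 in FS animals, AACS in 12 of 14 and ELOVL6 in 12 of 14, where 5.1% of all genes were called in either direction, while FASN changed by 0.62 ± 0.38 (adjusted p = 0.238, edgeR) and SCD by 0.56 ± 0.32 (adjusted p = 0.2).

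**Figure D3:**
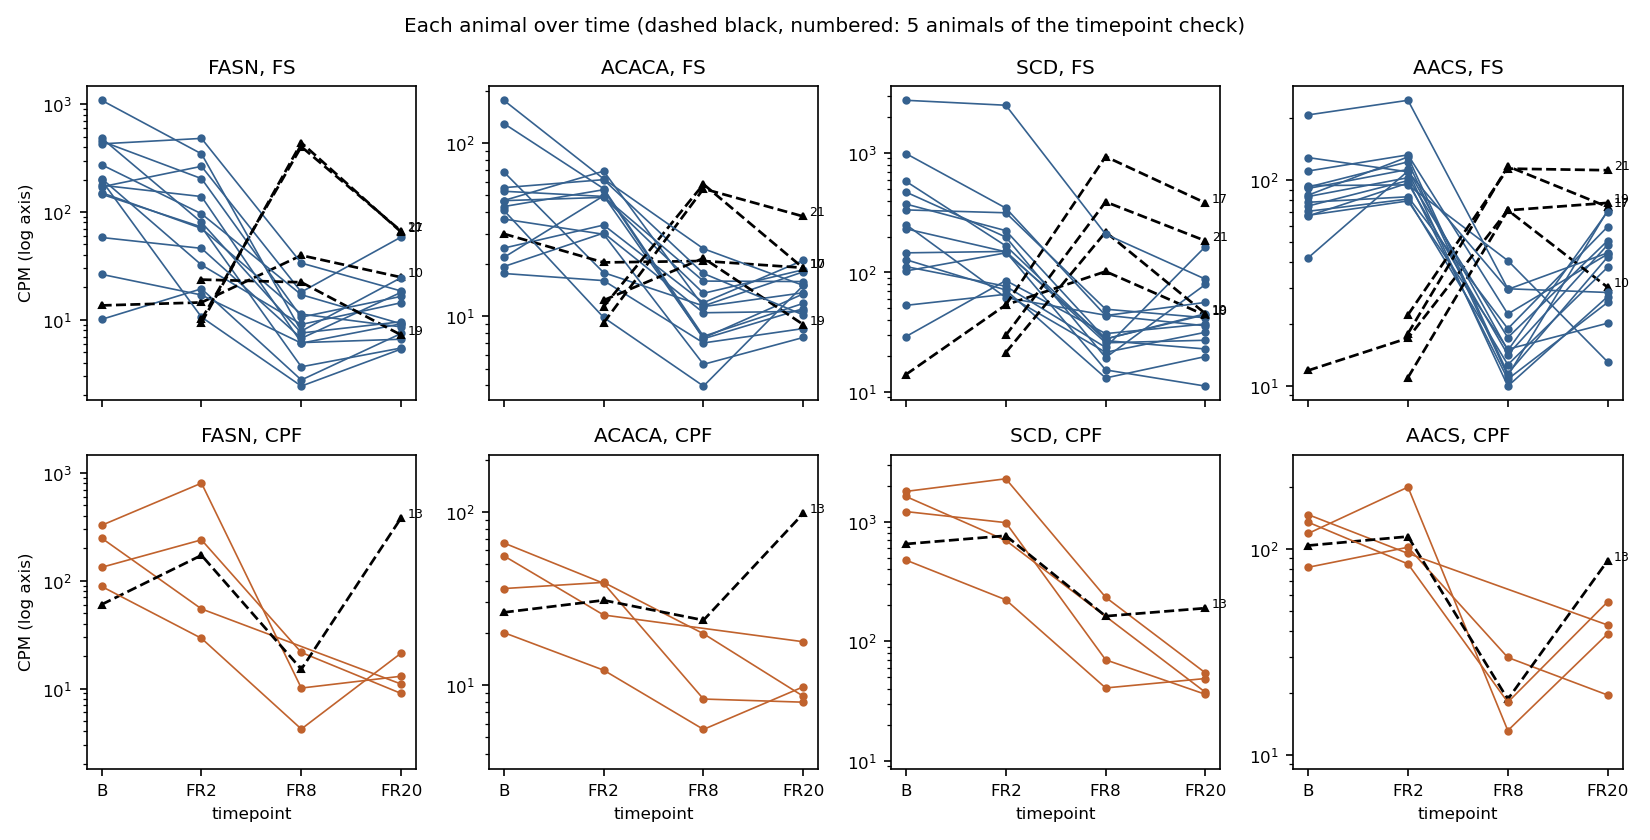
CPM (log axis) of FASN, ACACA, SCD and AACS in each animal from Baseline to FR20, FS above and CPF below, with lines joining the libraries of 1 animal. Dashed black lines are the 5 numbered animals of the timepoint check: in the FS panels animals 10, 17, 19 and 21 climb or stay level between FR2 and FR8 where the others drop, and CPF animal 13 rises to 382 CPM of FASN at FR20. Animal 3 has no FR8 library.

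The levels of these genes moved beside those of cell type markers, whose part in the result was not tested. In bulk tissue, fewer cells of a type and less RNA per cell cannot be told apart. The summed level of 10 hepatocyte marker rows had a median of 210807 CPM in FS animals at Baseline (88586 to 238457), 149144 at FR2, 90218 at FR8 and 56434 at FR20 (25980 to 167653). In CPF animals the medians were 197563, 149956, 94301 and 54628 CPM. Of these 10 rows, 4 were called lower and 2 higher at FS FR8vB. Neutrophil markers had a summed FS median of 0.931 CPM at Baseline (0 to 12.8), 15 CPM at FR2 (1.47 to 52.5), 7.06 CPM at FR8 and 4.09 CPM at FR20, and 3 of 3 rows tested were called higher at each of these times, with median log2 fold changes of 3.29, 2.55 and 1.97. Adipocyte markers, of interest because fat tissue also uses this pathway, had a summed FS median of 10.4 CPM at Baseline (4.27 to 23.4), 13.2 CPM at FR2, 20.5 CPM at FR8 and 27.3 CPM at FR20 (5.6 to 68.1). Of 3 adipocyte rows tested, 1 was called higher and 1 lower at FS FR2vB, 1 higher at FS FR8vB and 3 higher at FS FR20vB (median log2 fold change 1.37). Perilipin 1 (PLIN1) had an FS median of 1.73 CPM at Baseline and 4.61 CPM at FR20. Only 3 of the 8 adipocyte symbols listed matched a row. Most of the sum was CIDEC, with FS medians of 7.67 CPM at Baseline and 20.6 CPM at FR20. Whether the biopsies held more fat tissue was not tested. Of the neutrophil markers, CSF3R was at 0 in 88 of 88 libraries and MMP8 in 77. Of the remaining marker lists, called lower and higher at FS FR8vB were 0 and 0 of 4 striated muscle, 0 and 0 of 3 cholangiocyte, 0 and 0 of 3 endothelial, 2 and 0 of 6 stellate cell and fibroblast, 1 and 0 of 4 macrophage, 0 and 0 of 6 T and NK cell and 2 and 0 of 3 erythroid rows.

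Whether prefeeding changed the response was tested with an interaction term, the CPF change minus the FS change. No member was called at FR2vB, FR8vB or FR20vB by edgeR's quasi-likelihood test, DESeq2 or the edgeR likelihood ratio test, and none had an unadjusted p under 0.05. Of all genes, 0% were called in each of the 3 interactions, at unadjusted p under 0.05 2.9%, 3.42% and 3.81%. For FASN the FR2vB interaction was 1.35, with a 95% interval from −0.83 to 3.53. At FR8vB the FASN value was −0.45 (interval −2.85 to 1.96), and at FR20vB it was 1.85 (interval −0.54 to 4.23). SCD had −1.08 at FR8vB (interval −2.97 to 0.80) and −1.52 at FR20vB (interval −3.31 to 0.26, adjusted p = 1). Without the 5 animals of the timepoint check the SCD interaction at FR20vB was −2.04 ± 0.68 (unadjusted p = 0.00419, adjusted p = 1, edgeR), where 0% of all genes were called. Each of the intervals given, all from the fit with all animals, includes 0 and reaches a several-fold difference in at least one direction. A like response in the 2 groups was therefore not shown.

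CPF and FS animals were also compared at each timepoint. No member was called at B, FR2, FR8 or FR20 by edgeR's quasi-likelihood test, where 0.0257%, 0%, 0% and 0% of all genes were called. None was called by DESeq2 or the edgeR likelihood ratio test, but DESeq2 gave no adjusted p for 2 of 8 members at FR20. At an unadjusted p under 0.05 there were 0, 1, 0 and 2 members, and 7.66%, 5.58%, 5.17% and 3.25% of all genes. SCD had the largest estimates before FR8: the CPF median was 1215 CPM against 232 CPM in FS animals at Baseline (log2 difference 1.41 ± 0.74, adjusted p = 0.68) and 763 against 116 CPM at FR2 (1.92 ± 0.74, adjusted p = 0.874, edgeR). All 5 CPF libraries at Baseline were above the FS median, but FS animals 20 and 22 reached 2761 and 989 CPM. Without FS animal 20 the SCD difference at FR2 was 2.92 and was called (adjusted p = 0.00973), while over the other alternatives its adjusted p ran from 0.551 to 1. At FR20 the FASN estimate was 2.07 ± 0.66 (unadjusted p = 0.00412, adjusted p = 1), a comparison in which CPF animal 13 had 382 CPM and the other 4 CPF animals 9.0 to 21.3 CPM. This became −0.15 ± 0.49 (adjusted p = 0.988, edgeR) without the 5 animals.

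Animals that later died were compared with those that lived, with the feeding group as a covariate. No member was called at B, FR2, FR8 or FR20 by edgeR's quasi-likelihood test, and 0%, 0%, 0% and 0% of all genes were. At an unadjusted p under 0.05 there were 1, 4, 0 and 0 members, and 8.54%, 5.52%, 2.22% and 5.22% of all genes. DESeq2 called none. It gave no adjusted p for 1 of 8 members at B, 4 of 7 at FR2 (SCD among them) and 2 of 8 at FR20. The edgeR likelihood ratio test called 1, SCD at FR2 (adjusted p = 0.0197). The 0% above is from the quasi-likelihood test. The share of all genes called by the likelihood ratio test is not given here. At FR2 all 7 members tested had estimates above 0 (ACACB was too low to be tested), with SCD at 2.41 ± 0.56 (unadjusted p = 0.000242, adjusted p = 0.36), ACLY at 1.48 ± 0.44 (adjusted p = 0.644) and FASN at 1.93 ± 0.74 (adjusted p = 0.787, edgeR). SCD at FR2 was 61.6, 146 and 2510 CPM in the 3 FS animals that died (2, 16 and 20) and 2286 and 982 CPM in the 2 CPF animals that died (7 and 8), whereas FS survivors had 21.4 to 346 CPM and the 3 CPF survivors at most 763 CPM. Animal 20 carried much of the estimate: without it SCD was 0.54 (adjusted p = 1). Animal 20 was also the highest FS library at FR2 for FASN (481 CPM), ACLY (60.6 CPM, next 24 CPM), ELOVL6, ME1 and AACS. For ACACA the highest was animal 5. The estimates of the other members without animal 20 are not given here, so their shared direction cannot be read apart from that animal. The median estimate over all genes at FR2 was −0.02. Once the 5 animals of the timepoint check were left out, SCD was 1.83 ± 0.41 higher at FR8 in the animals that died (unadjusted p = 0.000337, adjusted p = 1, edgeR), where the estimate over all animals was −0.18 ± 1.03.

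Animals differed widely in the level of the pathway in the libraries labelled Baseline. In FS animals at Baseline, FASN spanned 10.1 to 1085 CPM and SCD 14 to 2761 CPM, while AACS spanned 42.0 to 208 CPM apart from animal 10 (11.9 CPM). In the timepoint check the Baseline libraries of animals 4 and 10 were most like FR8, animal 10 by a margin of 0.892 and animal 4 by 0.133. The lowest FASN was that of animal 4 and the lowest SCD that of animal 10, and without the 5 animals the lowest SCD was 29.1 CPM. Animals 4, 10 and 15 had the 3 lowest levels of both FASN and SCD at Baseline, and the highest FASN and SCD belonged to animals 22 and 20. Over the 88 libraries, after the mean of each feeding group was subtracted, FASN and ACACA had the highest correlation of any of the 28 member pairs (r = 0.89), followed by FASN and SCD (r = 0.84) and FASN and AACS (r = 0.77). The median over pairs was 0.19, and ME1 with AACS was lowest (r = −0.40). These libraries share animals and timepoints, so the correlations are descriptions.

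Likeness to the set was measured as the correlation of a gene with the mean standardized level of the members over the 88 libraries. Among the members, each scored against the others, it was 0.81 for FASN and ACACA, 0.70 for SCD, 0.61 for AACS, 0.60 for ELOVL6, 0.41 for ACLY, −0.05 for ACACB and −0.23 for ME1. Of 9691 other genes with a symbol, ACSS2 was most like the members (r = 0.88, and 0.89 over 71 libraries without the 5 animals). It encodes the cytosolic enzyme that makes acetyl-CoA from acetate. Others among the most alike were CYP4V2, a fatty acid hydroxylase (0.82), ACAT2, which makes acetoacetyl-CoA in the cytosol (0.79), KNG1, the secreted kininogen (0.78), and RAPH1 (0.78). FADS2, the first desaturase of polyunsaturated fatty acid synthesis, AGFG2, SMPD3, a sphingomyelinase, and BAAT, which conjugates bile acids, each had 0.77.

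The neighbouring steps of the pathway were read from 6 gene lists. Of 7 genes tested for acetyl-CoA and citrate supply, ACSS2 alone was called at FR8vB, at −1.83 ± 0.44 in FS (adjusted p = 0.000645) and −3.05 ± 0.84 in CPF animals (adjusted p = 0.0124), and it was also called at FS FR20vB (−1.50 ± 0.40). Of 12 lipogenic regulators tested, 2 were called lower at FS FR8vB and the same 2 at CPF FR8vB. These were INSIG1, the sterol-sensing retention protein of the endoplasmic reticulum (−2.28 ± 0.43 and −3.34 ± 0.86), and MLXIPL, the carbohydrate response transcription factor (−1.06 ± 0.20 and −1.76 ± 0.38). Both were already called lower at FS FR2vB, INSIG1 at −1.48 ± 0.40 and MLXIPL at −1.38 ± 0.19, and MLXIPL was the only regulator called at CPF FR20vB (−1.39 ± 0.34, adjusted p = 0.0316, edgeR). PPARG, the adipogenic nuclear receptor, was called higher at FS FR20vB (1.35 ± 0.46, adjusted p = 0.0187).

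Of 10 elongation and desaturation genes outside the set, 2 were called lower at FS FR8vB and 3 at CPF FR8vB, with list medians of −0.51 and −0.93 where all genes had 0.00 and 0.04. FADS1, the second desaturase of polyunsaturated synthesis, changed by −2.39 ± 0.49 and −3.41 ± 0.90 and FADS2 by −2.15 ± 0.54 and −3.13 ± 0.96 in FS and CPF animals, and TECR, the enoyl reductase of the elongation cycle, by −1.31 ± 0.29 in CPF animals. FADS1 was also called lower at FS FR2vB (−1.24 ± 0.41) and FR20vB (−1.72 ± 0.43). Without the 5 animals of the timepoint check, 4 of 9 elongation and desaturation genes were called lower at FS FR8vB.

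In the later steps, of 12 rows tested for fatty acid activation and glyceride synthesis, 2 were called lower and 2 higher at FS FR8vB. The lipins LPIN1 (−3.90 ± 0.56, adjusted p = 5.87e-07) and LPIN3 (−1.65 ± 0.28), phosphatidate phosphatases of glyceride synthesis, fell, while ACSL1, which activates long-chain fatty acids (1.13 ± 0.32), and AGPAT2, an acyltransferase (1.21 ± 0.17), rose. LPIN1 was called lower at all 3 FS times, with −1.82 ± 0.46 at FR2vB and −3.94 ± 0.50 at FR20vB, and GPAM, the mitochondrial glycerol-phosphate acyltransferase, was called higher at FS FR20vB (1.11 ± 0.32). At CPF FR8vB the 3 called lower were LPIN1 (−4.52 ± 1.07), LPIN3 (−1.83 ± 0.54) and DGAT1, the last enzyme of triglyceride synthesis (−1.17 ± 0.21). Of 9 genes tested for NADPH supply, none was called at FS FR8vB, MDH1 was called higher at CPF FR8vB (1.13 ± 0.26, adjusted p = 0.00387) and PGD, of the pentose phosphate pathway, at FS FR20vB (1.46 ± 0.24, adjusted p = 3.22e-06, edgeR). Of 5 genes for malonyl-CoA turnover, only OXSM, the mitochondrial ketoacyl synthase, was called, lower at FR2vB in FS (−1.46 ± 0.23) and CPF animals (−1.54 ± 0.40) and higher at FR8vFR2 in both (1.10 ± 0.21 and 1.36 ± 0.43).

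Cholesterol synthesis, which shares its sterol-responsive regulation with this pathway, was described beside it. Of 18 rows, 15 were called lower at FS FR8vB (median −1.89) and 16 at CPF FR8vB (median −2.68). Fatty acid oxidation and ketogenesis, the opposing pathway, had 3 of 16 called lower in each group at FR8vB, with medians of −0.47 and −0.66. Of 7 acute phase and stress rows, from 5 of the 10 symbols listed, 6 were called higher at FR8vB in each group.

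**Figure D4:**
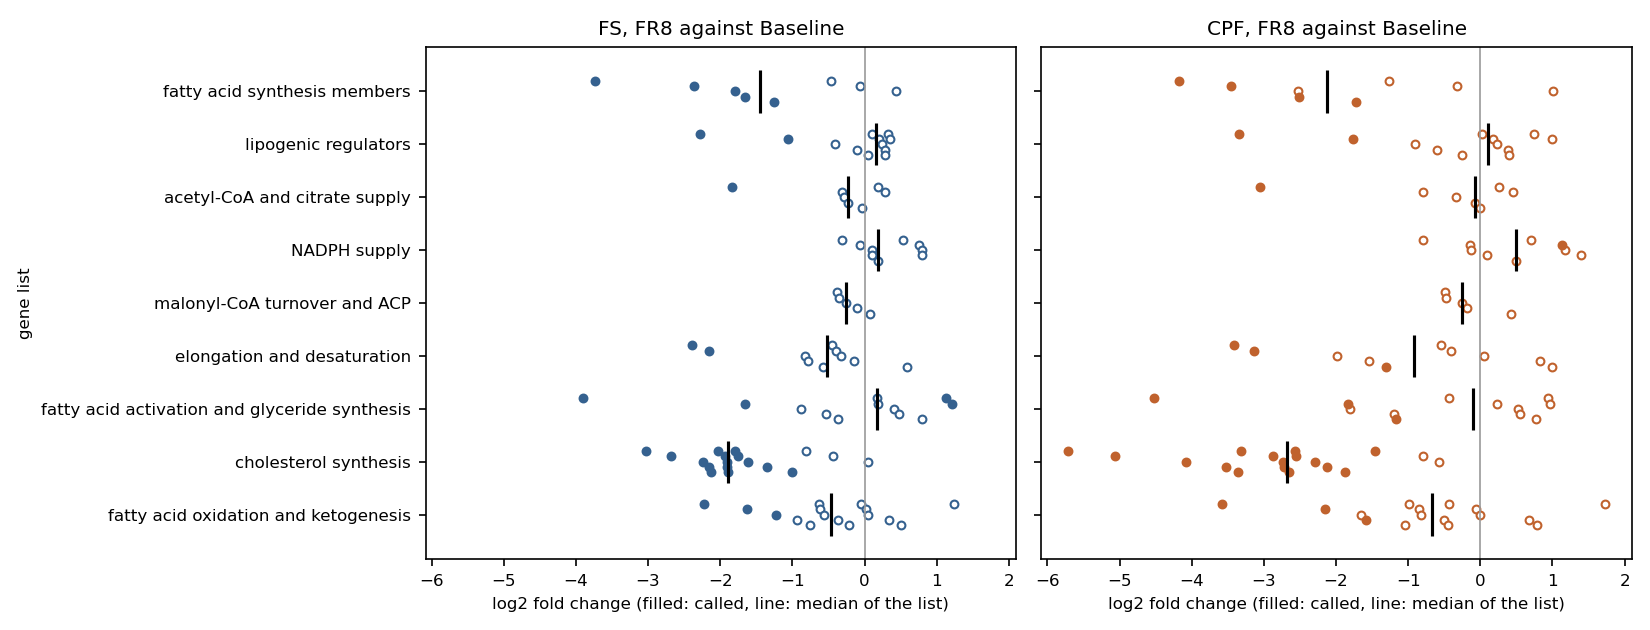
Log2 fold change at FR8 against Baseline of every tested gene in the members, the 6 neighbouring lists, cholesterol synthesis and fatty acid oxidation, in FS (blue) and CPF (orange) animals. Filled points were called and black bars are list medians: the members (−1.45 and −2.12) and cholesterol synthesis (−1.89 and −2.68) lie furthest below 0.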

How the data were processed

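The authors deposited whole-number read counts per Ensembl gene for 92 pig liver libraries. Per the labels and the study's methods, RNA was prepared with an oligo-dT kit, base calls came from CASAVA 1.8.2, reads were aligned to Sscrofa10.2 with TopHat 1.5.0 and counted with HTSeq. The counting mode and strand setting are not given in the sources used here. The deposited counts were analysed as they were.

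Libraries were grouped by the labelled fed status and timepoint. Genes with a summed CPM of at least 10 were kept, TMM factors were computed, and edgeR 4.0.16 in R 4.3.3 (glmQLFit and glmQLFTest) was fitted over all genes tested, with Benjamini-Hochberg adjustment over them. Changes over time and interactions had a term for each animal. CPF v FS was fitted at each timepoint without covariates and died v lived with feeding group as a covariate. There were 21 comparisons. Each group is of separate animals, and libraries at different times come from the same animals: residuals of 126 same-animal pairs had a median correlation of 0.21, against −0.02 for 1791 pairs of different animals, and 94 of the 126 were over 0.1. No pair of libraries was identical.

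Named genes were the members, the called genes with the highest and lowest change in each pathway list and comparison, and the 10 genes most like the members, of which 1 is not reported here. Other called genes of short counts were named after their values were seen. The members, lists and tests were chosen with earlier results of these data known. Of 18356 identifiers with counts, 12504 had a symbol, 700 of them from the study's tables alone. Within-animal directions used log2 (CPM + 2). Fits were run on simulated counts that held no animal effect and changed only genes with higher counts. That run does not show how the fits behave under the conditions of these data. DESeq2 1.42.0, the edgeR likelihood ratio test, other scalings, filters and left-out animals were alternatives.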

Additional observations from a re-analysis of the deposited data

Results flagged for a closer look

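Among 32 groups of 4 or 5 libraries (8 members, 4 CPF groups each), 7 had 1 library far above the others in unlogged CPM. The rule used flags about 1 in 20 groups by chance only for independent, normally distributed values. These groups share animals and CPM are skewed, so the count of 7 cannot be set against that rate. CPF animal 13 was the high library in 5 of the 7 groups. At FR20 it had 382 CPM of FASN, 98.0 CPM of ACACA and 189 CPM of SCD, and this library was the one most like Baseline in the timepoint check. For ACACB it had 2.58 CPM at Baseline and 1.53 CPM at FR2. CPF animal 7, which died, was the high library at FR2 for FASN (802 CPM, the others 29.2 to 239) and for AACS (200 CPM, the others 84.6 to 115).

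The 3 FS Baseline libraries with almost no albumin, which entered no comparison, held members at levels outside those of the other FS Baseline libraries, here as CPM of library total. ACACB was 44.6 CPM in animal 17, 44.5 CPM in animal 19 and 62.9 CPM in animal 21, where the highest used FS Baseline library had 0.980 CPM. ME1 was 59.1, 60.5 and 44.8 CPM in the same animals, where the highest had 26.2 CPM. AACS was 5.81, 5.28 and 5.61 CPM, where the lowest had 13.2 CPM. In animals 17 and 19 ACACA (9.20 and 11.7 CPM) and ELOVL6 (0.64 and 0.352 CPM) were also below the lowest used FS Baseline libraries (14.2 and 1.02 CPM). The part of tissue or library identity in these values was not tested.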

How the results depend on the processing

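Of 4253 member values recomputed, 4155 kept their side of the threshold, 69 lost a call, 29 gained one and 0 turned a called direction. The estimate changed sign in 201, of which 0 were called in either fit. FASN, ACACA, SCD and AACS at FS FR8vB, and FASN, ACACA and SCD at FS FR20vB, kept their calls in all 31 alternatives. ELOVL6 at FS FR8vB lost its call in 7 of 31 and AACS at FS FR20vB in 11 of 31. Without the replicate block (the term for each animal), 0 members were called at FS FR2vB, 2 at FS FR8vFR2, 1 at CPF FR8vB, 0 at CPF FR20vB and 1 at CPF FR8vFR2. With the 3 low-albumin Baseline libraries kept, 2 were called at CPF FR8vB, 0 at CPF FR20vB and 0 at CPF FR8vFR2. In FS animals this setting took the calls from FASN at FR2vB, ELOVL6 at FR8vB, AACS at FR20vB and SCD at FR8vFR2. Calls that other members may have gained in it are not given here. With only animals that lived, 0 were called at CPF FR8vB, 0 at CPF FR20vB and 0 at CPF FR8vFR2, and in FS animals ELOVL6 at FR8vB, AACS at FR20vB and SCD at FR8vFR2 lost their calls. The CPF animals in that fit were 3, 13 and 18, and animal 3 had no used FR8 library. So few libraries cannot tell a changed response from a loss of power. Over all 18 alternatives the FASN estimate at CPF FR8vB ran from −4.92 to −3.68. At FS FR20vFR8, 1 was called with only the animals that had all 4 timepoints, 1 without animals 17, 19 and 21, and 2 without the 5 animals of the timepoint check, a choice made after seeing the data, which also gave 4 at CPF FR20vB. Of all genes, 200 were called at FS FR20vFR8 in the main fit, 677 without animals 17, 19 and 21 and 683 without the 5. At CPF FR20vB the share went from 0.702% to 7.08% without the 5. For the other settings of this paragraph such counts are not given, so the member counts cannot be set beside them. The edgeR likelihood ratio test called 1 at died v lived FR2, where its share of all genes called is not given here. Leaving out 1 animal in turn gave 4 to 5 members at FS FR8vB, 3 to 4 at FS FR20vB, 0 to 3 at CPF FR8vB (0 without animal 18), 0 to 3 at CPF FR20vB (3 without animal 13, 0 without 3, 7, 8 or 18), 0 to 3 at CPF FR8vFR2 (0 without 7, 13 or 18) and 0 to 1 at CPF v FS FR2. The cause of these differences was not tested. CPF results rest on 4 or 5 libraries a time, and on fewer where CPF animals were left out.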
